A study of Mus musculus with 16 samples.

Results

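The genes described here are 38 genes of the motile cilium, chosen by name from a list covering the transcription factors that drive multiciliated cells, the dynein arms, the nexin-dynein regulatory complex, the radial spokes and central pair, microtubule proteins of the axoneme, an assembly factor, proteins of the apical surface and cilium tip, and kinases. Of the 38, 36 had a probe in the table of 20738 named genes, and the probe with the highest mean over 16 arrays stands for each. Dnah3 and Dnah12 had no probe under their own symbol. The probe listed as Dnahc3, an older name of both, was set aside. The probe listed as Spag6 is named Spag6l through its RefSeq accession, and stands for Spag6 here. The Mcidas probe is listed under the older name Gm6320, and that it measures Mcidas rests on this annotation alone. Its mean over 16 arrays was 13.32, where the upper quartile of gene means was 10.95.

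Motile cilia cover the multiciliated cells of the airway and beat to move mucus out of the lung. Each holds an axoneme of microtubule doublets around a central pair, bent by dynein motors whose activity is set by radial spokes, the central pair and the nexin-dynein regulatory complex. A cell becomes multiciliated when Mcidas and its relatives switch on a programme that amplifies centrioles, in which Ccno and Deup1 act, and that turns on Foxj1 and the RFX factors, which activate the genes of the axoneme. Whole lung is mostly alveolar tissue, so these transcripts come from a small part of the sample.

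Messenger RNA of whole lungs of C57BL/6 mice aged 9 to 12 weeks was measured on 1-colour Agilent arrays. An oligonucleotide of locked nucleic acid (LNA) was put into the trachea at 5 mg/kg, on days 4 and 2 before and day 4 after an intratracheal dose of bleomycin (1 unit/kg) or of PBS, its vehicle. Bleomycin breaks DNA, and given into the airway it causes lung injury followed by fibrosis. The LNA was LNA-control or LNA-miR-199a-5p, an inhibitor of the microRNA miR-199a-5p. The 4 groups were PBS + LNA-control (3 arrays), PBS + LNA-miR-199a-5p (3 arrays), Bleomycin + LNA-control (5 arrays) and Bleomycin + LNA-miR-199a-5p (5 arrays). All animals carry an LNA, so no lung is untreated. The series asks what silencing miR-199a-5p does to bleomycin-induced fibrosis. The labels do not name separate animals, so p-values measure the spread between these arrays, which may be partly technical. Values are log2 intensities, whose errors are given as standard errors of a limma fit over all 16 arrays, and their precision is limited by the number of arrays. In whole tissue, fewer ciliated cells and less RNA in each cell cannot be told apart. Apart from the level given for the Mcidas probe, intensities of different probes were not compared.

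The sequences shown are those of the inhibited microRNA and of microRNA families known for their part in making multiciliated cells. These families were chosen for the comparison and were not part of the design. miR-34 and miR-449 are needed for the differentiation of motile multiciliated cells, and the genes of miR-449 lie beside Mcidas and Ccno. The mature sequences, from RefSeq on GRCm38.p6, run 5′ to 3′ with the seed, bases 2 to 8, in capitals.
mmu-miR-199a-5p: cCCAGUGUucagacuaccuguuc
mmu-miR-34a-5p: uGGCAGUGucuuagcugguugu
mmu-miR-34b-5p: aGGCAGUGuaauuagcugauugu
mmu-miR-449a-5p: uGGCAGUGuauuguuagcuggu
mmu-miR-449c-5p: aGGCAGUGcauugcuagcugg
The miR-34 and miR-449 members share 1 seed, which is not that of miR-199a-5p. miR-199a-5p has a run of 6 bases in common with miR-34a, miR-34b and miR-449a, at base 3 in miR-199a-5p and base 4 in the other 3. With miR-449c the run is 5 bases. miR-199a-5p is encoded at chr1:162217844-162217866 (+) and chr9:21496537-21496559 (-), miR-449a at chr13:113037549-113037570 (+) and miR-449c at chr13:113036008-113036028 (+). Ccno lies at chr13:112987802-112990778 and Mcidas at chr13:112993581-113000394, so that Ccno, Mcidas, miR-449c and miR-449a follow each other along the chromosome. MicroRNA levels were not measured on these arrays.

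RFX factors bind the X-box, an inverted repeat whose first arm is GTTGCC or a close form of it. RefSeq promoter windows of 300 bases (250 before the start, 50 after) matched 31 of the 36 genes, and those of Foxj1, Rsph1, Rsph4a, Tppp3 and Stk33 were not used here. A full X-box, searched on both strands, was in 4 of the 31 windows (12.9%: Ccno, Spef2, Hydin and Tekt2), against 1.75% of the windows of 27025 genes. The arm GTTGCC alone, searched on both strands and contained in some full matches, was in 18 of 31 windows (58.1%), against 14.1% of all genes. TGTTTAC, a forkhead site of the kind Foxj1 binds, was in 2 windows (6.5%, Sntn and Ak7), against 4.05% of all genes. The windows of Tekt2, Hydin and Ccno, where the full X-box lies before the start, are shown in part. They give the X-box in capitals and the bases around it, on GRCm38.p6, read on the strand of the gene.
Tekt2 (chr4:126325689-126325757, minus strand): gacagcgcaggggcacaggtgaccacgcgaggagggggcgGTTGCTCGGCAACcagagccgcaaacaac
Hydin (chr8:110266916-110266976, plus strand): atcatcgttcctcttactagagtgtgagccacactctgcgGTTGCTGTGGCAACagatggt
Ccno (chr13:112987552-112987636, plus strand): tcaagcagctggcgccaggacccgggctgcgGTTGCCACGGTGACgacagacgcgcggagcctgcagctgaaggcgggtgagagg
The match lies at positions -29 to -17 of the Tekt2 start, -21 to -8 of that of Hydin and -219 to -206 of that of Ccno. In Spef2 it lies after the start, at positions 9 to 23. These are matches of letters, not measured binding.

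Some arrays stood apart in transcripts of other tissues. Markers of thymocytes were high on the Bleomycin + LNA-control arrays 1 and 4, where the list's mean level was 9.00 and 9.76 against 6.61 to 6.80 on the other 3 arrays of that group. Squamous epithelial markers were low on PBS + LNA-miR-199a-5p array 3 (mean level 6.45, against 12.4 and 11.6 on the other 2) and lowest of its group on PBS + LNA-control array 3 (9.64). RNA integrity numbers ran from 7 to 10, and the group means were 8.33 in both PBS groups, 8.2 in Bleomycin + LNA-control and 9 in Bleomycin + LNA-miR-199a-5p.

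How many motile cilia genes were called depended on how the arrays were weighted. In lungs given LNA-control, bleomycin changed 5 of the 36 genes at a limma adjusted p under 0.05 (13.9%, against 17.6% of all genes, of which 9.65% rose and 7.92% fell): Ccno rose, and Mcidas, Dnah5, Tppp3 and Stk33 fell. Most of the 36 nevertheless had a lower mean after bleomycin, with 30 of 36 differences below 0 and a median of -0.20 against 0.00 for all genes. In lungs given the inhibitor, bleomycin changed 4 of 36 (11.1%, against 13.4% of all genes, of which 7.36% rose and 6.09% fell): Rfx2 rose, and Rfx3, Tekt2 and Sntn fell, with a median of -0.05. The bleomycin responses of the LNA arms used different PBS arrays and different bleomycin arrays. The count with LNA-control was 2 (5.56%) without PBS + LNA-control array 2 and also 2 without array 3, against 12.4% and 11.0% of all genes. Without Bleomycin + LNA-control array 3, the highest of its group in these same genes, it was 11 (30.6%, against 19.1% of all genes). With arrays weighted by their agreement with the fit it was 21 (58.3%, against 32.3% of all genes), of which 19 fell and 2 rose. The count with the inhibitor was 2 without any 1 of PBS + LNA-miR-199a-5p arrays 1 and 3 or Bleomycin + LNA-miR-199a-5p arrays 4 and 5. These are 5.56% of the 36, against 5.7% to 9.08% of all genes.

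Between the bleomycin groups, 7 of 36 genes differed with the inhibitor (19.4%, against 24.9% of all genes, 13.5% higher and 11.5% lower). Rfx2, Hydin, Tppp3, Zmynd10 and Stk33 were higher, Spef2 and Sntn were lower, and the median over 36 was 0.08 against 0.01 for all genes. In PBS lungs the inhibitor changed none of the 36 in the limma fit (0.0482% of all genes were called), where 3 had an unadjusted p under 0.05, and the smallest adjusted p was 0.391 (Spef2). The interaction, the difference between the bleomycin responses of the LNA arms, passed for 1 of 36 (2.78%, against 7.03% of all genes), Tppp3, which was above 0 like 3.08% of all genes. In the unweighted fit of all arrays the share of the 36 called was below that of all genes in each of the 5 comparisons. With array weights it was above it for the inhibitor in bleomycin lungs (30.6% against 28.7%) and for the interaction (22.2% against 18.7%). The same held for the inhibitor in PBS lungs (2.78% against 1.88%) and for bleomycin with LNA-control. Over the 5 comparisons 12 genes were called at least once and 24 never. For most of them the change was limited in size by its interval: the 95% interval lay within a 2-fold change either way for 34 of 36 after bleomycin with LNA-control, 35 after bleomycin with the inhibitor, 35 for the inhibitor in bleomycin lungs, 35 for it in PBS lungs and 32 for the interaction. A smaller change is less well limited, since intervals within 0.5 on the log2 scale were reached by 21, 25, 26, 28 and 14 of the 36.

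**Figure D1:**
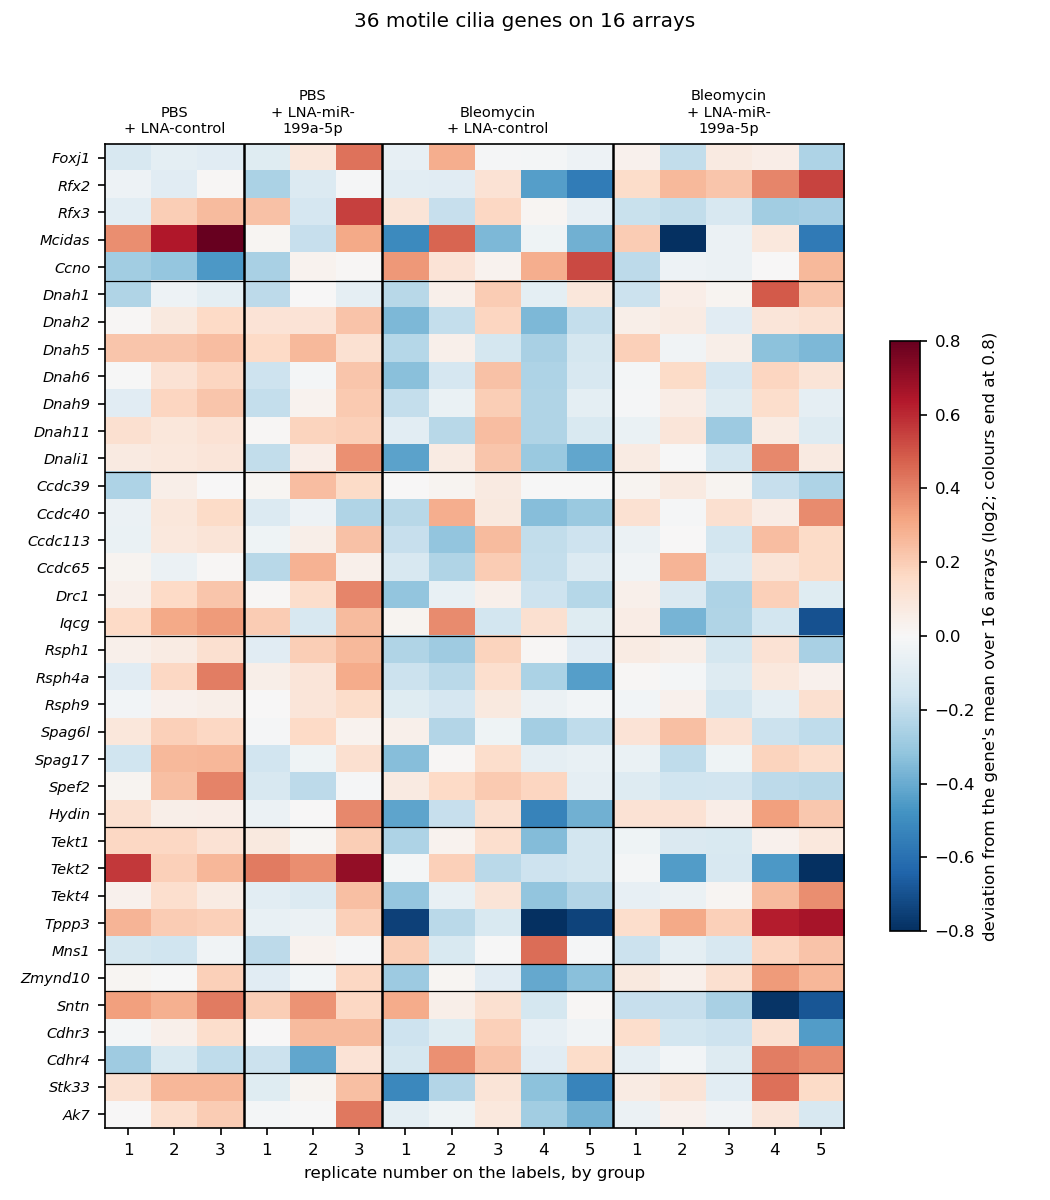
Deviation of each of 36 motile cilia genes from its own mean over 16 arrays, in log2 units, with genes in rows by role (thin lines between roles) and arrays in columns by group (thick lines). Most rows are pale, Tppp3 is lowest on Bleomycin + LNA-control arrays 1, 4 and 5 and highest on Bleomycin + LNA-miR-199a-5p arrays 4 and 5, where Sntn is lowest.

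**Figure D2:**
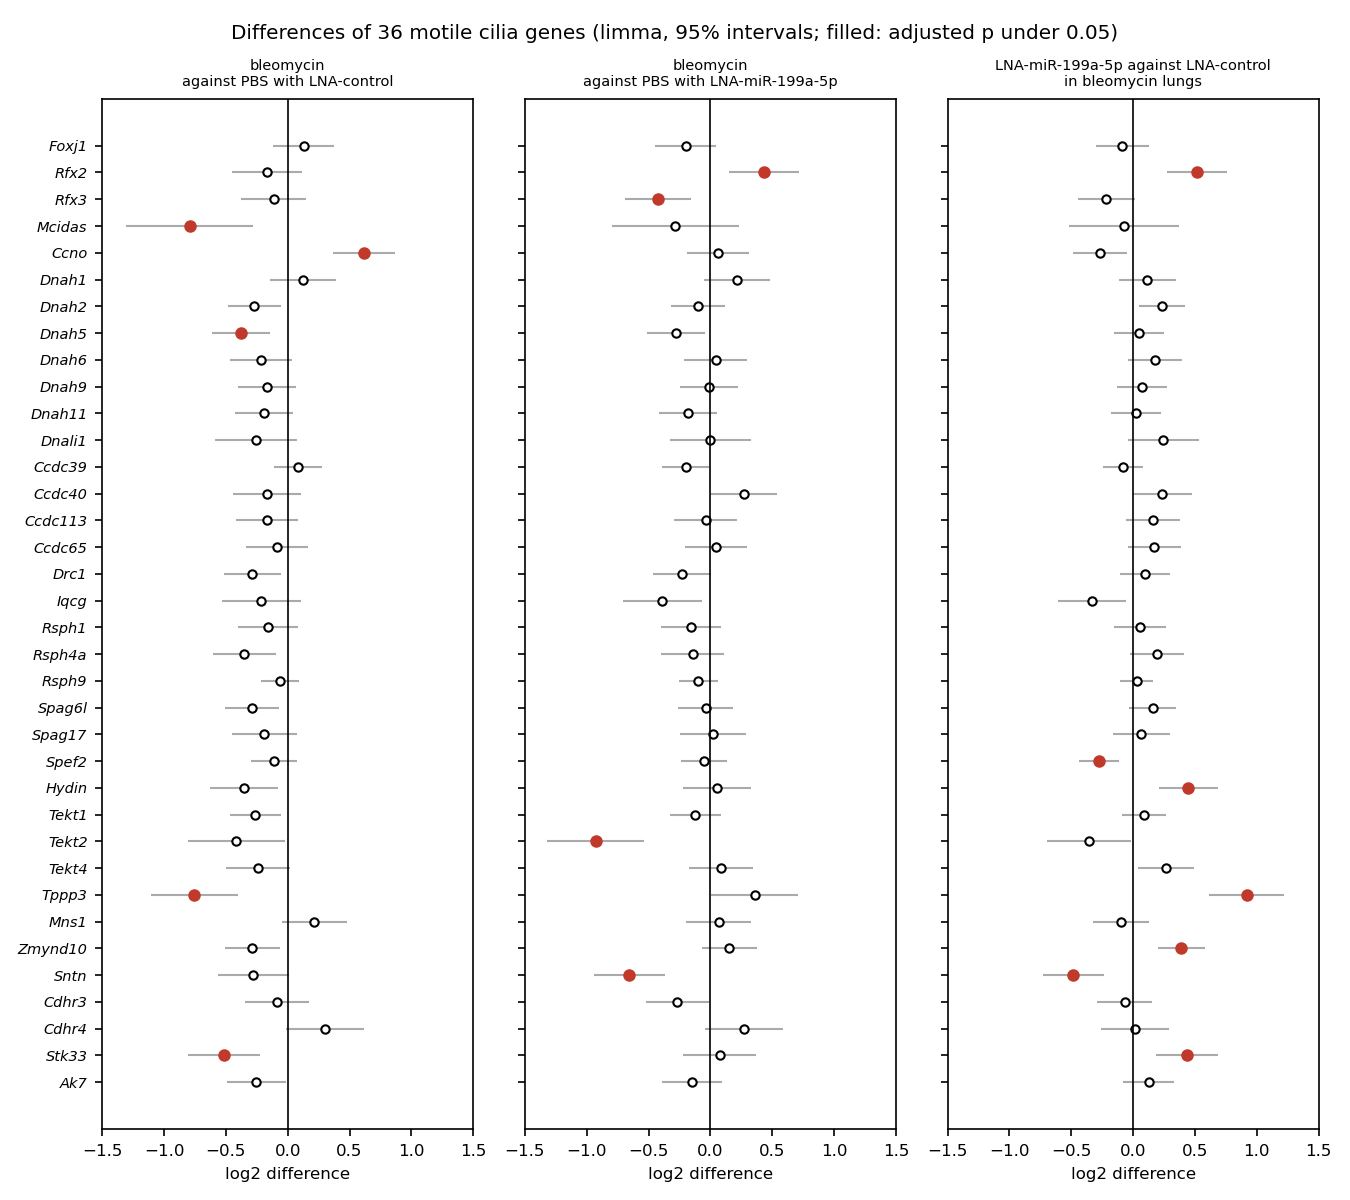
Differences between groups in log2 units for 36 motile cilia genes in 3 comparisons, with 95% intervals from limma; filled red points have an adjusted p under 0.05. In the left panel 30 of 36 differences are below 0 and 5 pass, in the middle panel 4 pass and in the right panel 7 pass.

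Among the genes that control the programme, the 5 measured did not move together. Foxj1, the master factor of motile ciliogenesis, read 11.11, 11.16 and 11.15 on the PBS + LNA-control arrays and 11.17, 11.53, 11.23, 11.22 and 11.20 on the Bleomycin + LNA-control arrays. All 5 bleomycin arrays lay above the 3 PBS arrays, by a margin that did not pass: 0.13 ± 0.12 (limma adjusted p = 0.527, 95% interval -0.12 to 0.37). With the inhibitor Foxj1 read 11.14, 11.33 and 11.67 in PBS lungs and 11.27, 11.04, 11.31, 11.29 and 10.99 in bleomycin lungs. These groups overlapped, and the bleomycin difference was -0.20 ± 0.12 (limma adjusted p = 0.259). Groups that do not overlap after bleomycin with LNA-control were seen for 7 of the 36 genes (19.4%), against 25.3% of all genes.

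Ccno encodes cyclin O, which is needed for the amplification of centrioles in multiciliated cells. It read 8.40, 8.37 and 8.22 in PBS + LNA-control lungs and 9.03, 8.79, 8.71, 8.97 and 9.21 in Bleomycin + LNA-control lungs. Every bleomycin array was above every PBS array, and the rise was 0.62 ± 0.12 (1.53-fold, limma adjusted p = 0.00163). Leaving out any 1 of the 16 arrays kept the call. With the inhibitor the values were 8.42, 8.71 and 8.69 in PBS lungs and 8.47, 8.64, 8.63, 8.68 and 8.94 in bleomycin lungs. The latter groups overlapped, with a difference of 0.06 ± 0.12 (limma adjusted p = 0.765). The interaction of -0.55 ± 0.17 did not pass (limma adjusted p = 0.0583).

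The probe listed for Mcidas, whose product multicilin starts the programme, moved the other way in the same LNA-control lungs. That it measures Mcidas was not tested. The probe read 13.69, 13.96 and 14.18 with PBS and 12.81, 13.78, 12.96, 13.28 and 12.93 with bleomycin. Bleomycin array 2 overlapped with the PBS arrays, and the fall of 0.79 ± 0.24 on the log2 scale passed (limma difference -0.79, adjusted p = 0.0318). The call was lost without any 1 of PBS arrays 2 or 3 or bleomycin arrays 1, 3 or 5. In inhibitor lungs it read 13.33, 13.13 and 13.62 with PBS and 13.52, 12.45, 13.27, 13.40 and 12.75 with bleomycin. These overlapped (-0.28 ± 0.24, limma adjusted p = 0.463).

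Rfx2 and Rfx3 encode factors that bind the X-box. Rfx2 read 7.47, 7.42 and 7.52 in PBS + LNA-control lungs, 7.26, 7.40 and 7.50 in PBS lungs with the inhibitor, 7.43, 7.42, 7.63, 7.07 and 6.95 in Bleomycin + LNA-control lungs and 7.66, 7.77, 7.73, 7.90 and 8.05 in bleomycin lungs with the inhibitor. Every array of the last group was above all arrays of the other 3. The inhibitor's difference in bleomycin lungs was 0.52 ± 0.11 (1.43-fold, limma adjusted p = 0.00389) and kept its call without any 1 array. Among inhibitor lungs bleomycin raised Rfx2 by 0.43 ± 0.13 (limma adjusted p = 0.0407), a call lost without any 1 of 8 arrays, all 6 PBS arrays among them.

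Rfx3 went down in the same comparison of inhibitor lungs. It read 6.60, 6.23 and 6.91 with PBS and 6.19, 6.17, 6.24, 6.09 and 6.10 with bleomycin. The groups overlapped at PBS array 2, and the fall was 0.42 ± 0.12 (limma difference -0.42, adjusted p = 0.0351), lost without PBS array 1 or 3 or bleomycin array 4 or 5. The other 2 Rfx3 probes were not called. In LNA-control lungs Rfx3 read 6.28, 6.56 and 6.62 with PBS and 6.47, 6.18, 6.53, 6.38 and 6.30 with bleomycin, groups that overlapped.

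**Figure D3:**
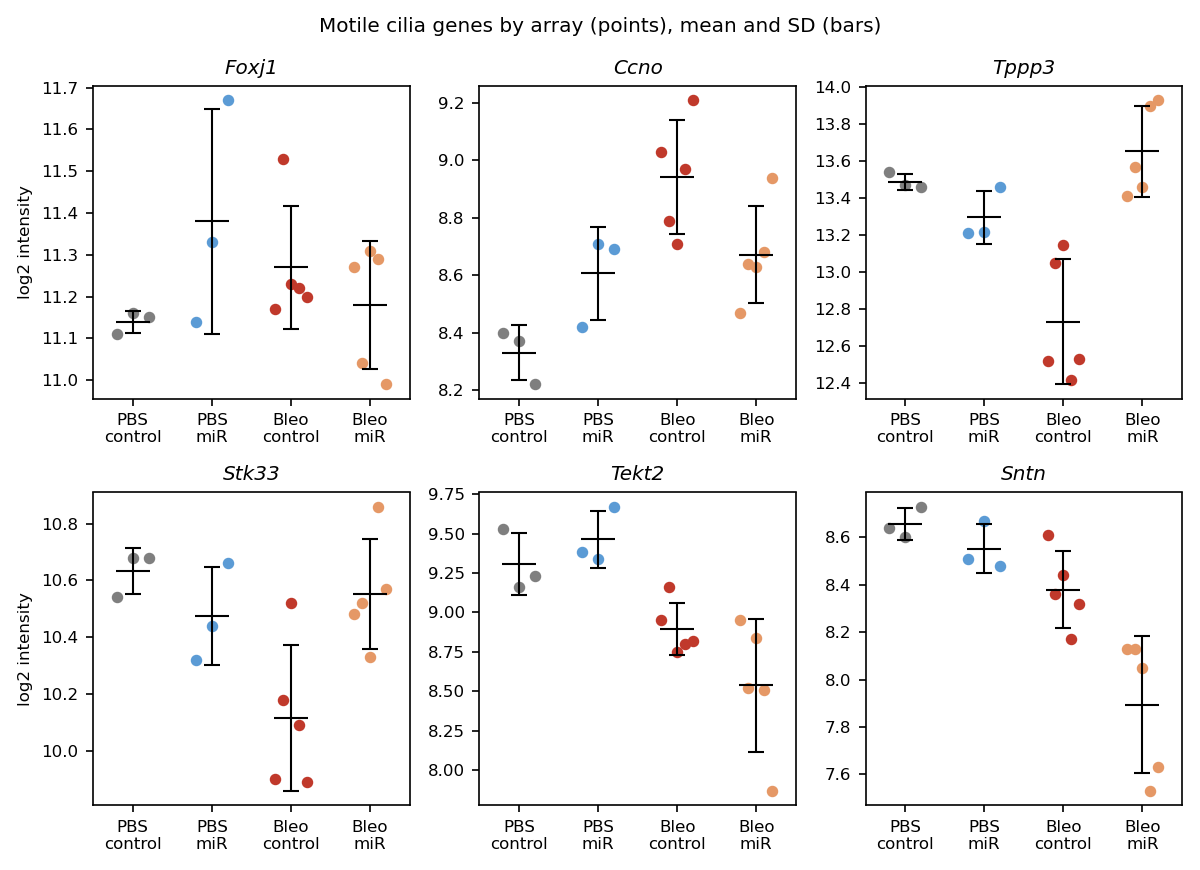
Log2 intensity of 6 motile cilia genes on each array (points) with the mean and SD of each group (horizontal line and bars); each panel has its own axis. Ccno is above its PBS arrays on all 5 Bleomycin + LNA-control arrays, Tppp3 is below its PBS arrays on the same 5 and at 13.41 to 13.93 with the inhibitor, and Sntn is at 7.53 to 8.13 in bleomycin lungs with the inhibitor.

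Dynein arms carry the motors that bend the cilium. Of 7 measured genes, Dnah5, the heavy chain of the outer arm most often mutated in primary ciliary dyskinesia, was the 1 called. It read 10.37, 10.37 and 10.40 in PBS + LNA-control lungs and 9.92, 10.19, 10.01, 9.89 and 10.01 in Bleomycin + LNA-control lungs. The bleomycin arrays all lay below the PBS arrays, and the difference was -0.38 ± 0.11 (1.30-fold, limma adjusted p = 0.0266). The call was lost without any of the 3 PBS arrays or without bleomycin array 1 or 4. In inhibitor lungs Dnah5 read 10.31, 10.41 and 10.27 with PBS and 10.34, 10.12, 10.20, 9.82 and 9.79 with bleomycin, which overlapped (-0.28 ± 0.11, limma adjusted p = 0.105).

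Dnah6 encodes an inner arm heavy chain. It read 12.04, 12.16 and 12.22 in PBS + LNA-control lungs, 11.88, 12.03 and 12.27 in PBS lungs with the inhibitor, 11.71, 11.91, 12.28, 11.80 and 11.92 in Bleomycin + LNA-control lungs and 12.03, 12.20, 11.91, 12.22 and 12.15 in bleomycin lungs with the inhibitor. All groups overlapped. Over the 7 dynein genes the bleomycin difference ran from -0.38 to 0.13 with LNA-control, 6 of them below 0, and from -0.28 to 0.22 with the inhibitor. The inhibitor's difference in bleomycin lungs was above 0 for all 7, from 0.02 to 0.24, and none of these passed. The probe listed as Dnahc3 had differences of -0.15, 0.03 and 0.21 in these 3 comparisons, with no call.

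None of the 6 genes of the ruler and nexin-dynein regulatory complex, which set the spacing of the arms and link neighbouring doublets, was called in any of the 5 comparisons. Drc1, an organiser of the regulatory complex, read 11.64, 11.76 and 11.82 in PBS + LNA-control lungs and 11.28, 11.54, 11.64, 11.43 and 11.37 in Bleomycin + LNA-control lungs. These groups did not overlap before rounding, yet the difference of -0.29 ± 0.11 missed the threshold. With the inhibitor it read 11.61, 11.74 and 11.99 in PBS lungs and 11.64, 11.48, 11.35, 11.79 and 11.50 in bleomycin lungs. Ccdc40, which with Ccdc39 forms the ruler, had bleomycin differences of -0.17 with LNA-control and 0.27 with the inhibitor. Iqcg had -0.21 and -0.39, neither called.

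Radial spokes and the central pair pass signals to the dynein arms. All 7 genes had a mean below that of PBS after bleomycin with LNA-control, from -0.36 to -0.06, and none of these passed with the probe that stands for the gene. A second probe of Rsph4a, a spoke head protein, was called lower after bleomycin in both arms, at -0.50 with LNA-control (limma adjusted p over all probes 0.0009) and -0.39 with the inhibitor (0.0131), where the first read -0.35 and -0.14. Rsph9, a spoke head protein, varied least: it read 11.76, 11.82 and 11.83 in PBS + LNA-control lungs, 11.79, 11.88 and 11.93 in PBS lungs with the inhibitor, 11.69, 11.65, 11.86, 11.74 and 11.76 in Bleomycin + LNA-control lungs and 11.76, 11.82, 11.64, 11.71 and 11.91 in bleomycin lungs with the inhibitor. All groups overlapped.

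Hydin, a large protein of the central pair, read 8.44, 8.68, 8.99, 8.33 and 8.48 in Bleomycin + LNA-control lungs and 8.98, 8.98, 8.92, 9.19 and 9.08 in bleomycin lungs with the inhibitor. Only array 3 of the LNA-control group reached the inhibitor arrays, and the difference was 0.45 ± 0.11 (1.36-fold, limma adjusted p = 0.00879). In PBS lungs Hydin read 8.99, 8.91 and 8.92 with LNA-control and 8.82, 8.87 and 9.25 with the inhibitor. The call did not extend to the other 2 Hydin probes, at -0.14 and -0.10, and 1 of these was itself called lower after bleomycin with LNA-control (-0.36, limma adjusted p over all probes 0.0326) and with the inhibitor (-0.51, 0.0105). The call was lost in the mean of all probes of the gene.

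Spef2, another central pair protein, was lower with the inhibitor: 6.22, 6.31, 6.36, 6.32 and 6.08 in Bleomycin + LNA-control lungs against 6.05, 5.99, 6.00, 5.94 and 5.93 with the inhibitor. The arrays did not overlap, and the difference was -0.28 ± 0.08 (1.21-fold, limma adjusted p = 0.0138). Groups without overlap between the bleomycin arms were seen for 5 of 36 genes (13.9%), against 13.8% of all genes. In PBS lungs the values were 6.17, 6.39 and 6.55 with LNA-control and 6.02, 5.94 and 6.14 with the inhibitor, also without overlap, as in 3 of 36 genes (8.33%) against 18.0% of all genes. That difference was -0.34 ± 0.10 and did not pass (limma adjusted p = 0.391).

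Tppp3 encodes a tubulin polymerization-promoting protein that is abundant in ciliated cells and also found in other cell types. It read 13.54, 13.47 and 13.46 in PBS + LNA-control lungs and 12.52, 13.05, 13.15, 12.42 and 12.53 in Bleomycin + LNA-control lungs. The bleomycin arrays were all lower, by 0.76 ± 0.17 on the log2 scale (difference -0.76, 1.69-fold, limma adjusted p = 0.00412). With the inhibitor it read 13.21, 13.22 and 13.46 in PBS lungs and 13.41, 13.57, 13.46, 13.90 and 13.93 in bleomycin lungs. These overlapped, and the difference of 0.36 ± 0.17 did not pass (limma adjusted p = 0.155).

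Bleomycin lungs with the inhibitor were all above those with LNA-control, by 0.92 ± 0.14 (1.89-fold, limma adjusted p = 0.000319). The interaction was 1.12 ± 0.23 (limma adjusted p = 0.0108). All 3 of these Tppp3 calls held when any 1 array was left out, and also when Bleomycin + LNA-control arrays 1 and 4 were left out together (interaction 0.94, limma adjusted p = 0.043). Tppp3 had the largest difference in size of the 36 genes in the inhibitor comparison and in the interaction.

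Markers of some other cells also fell after bleomycin with LNA-control and rose with the inhibitor in bleomycin lungs. Of 10 club cell markers, which mark the secretory cells of the airway, 5 fell after bleomycin with LNA-control (7.92% of all genes did) and 4 rose with the inhibitor in bleomycin lungs (13.5% of all genes did). The mean level of the club cell list was 15.77 to 15.80 in PBS + LNA-control, 15.76 to 15.84 in PBS with the inhibitor, 15.23 to 15.56 in Bleomycin + LNA-control and 15.48 to 15.71 in bleomycin with the inhibitor. Of 5 heart markers, 3 fell and then 5 rose in these comparisons, and their mean level was 12.72 to 13.10, 13.12 to 13.27, 12.26 to 12.88 and 12.95 to 13.82 in the same order of groups. Of 5 mesothelial markers, 3 fell and 3 rose, at mean levels of 10.35 to 10.52, 10.13 to 10.24, 10.15 to 10.31 and 10.52 to 10.67. Of 8 markers of type 1 alveolar cells, 3 fell and 1 rose after bleomycin with LNA-control and 5 rose with the inhibitor, at mean levels of 13.94 to 14.02, 13.81 to 14.00, 13.64 to 14.07 and 13.98 to 14.12.  After bleomycin in inhibitor lungs 2 club cell markers fell (6.09% of all genes did) and 3 mesothelial markers rose (7.36%). Other airway lists were mixed. Of 9 goblet cell markers, 2 rose and 1 fell after bleomycin with LNA-control (9.65% and 7.92% of all genes did). With the inhibitor in bleomycin lungs 3 rose. Of 8 basal cell markers 1 rose in both comparisons. Of 6 neuroendocrine markers 1 rose and 1 fell in both. The part of these lists in the Tppp3 difference was not tested.

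Tekt2, a tektin that lies along the doublets of cilia and sperm tails, had the largest fall of the 36 genes after bleomycin in inhibitor lungs. It read 9.38, 9.34 and 9.67 with PBS and 8.95, 8.52, 8.84, 8.51 and 7.87 with bleomycin. The groups did not overlap, as for 4 of 36 genes (11.1%) against 20.7% of all genes. The difference was -0.93 ± 0.19 (1.90-fold, limma adjusted p = 0.00815). In LNA-control lungs it read 9.53, 9.16 and 9.23 with PBS and 8.95, 9.16, 8.75, 8.80 and 8.82 with bleomycin. The highest bleomycin array overlapped the lowest PBS array, and -0.41 ± 0.19 did not pass (limma adjusted p = 0.148). The interaction for Tekt2 was -0.51 ± 0.26 (limma adjusted p = 0.261), so the fall was not shown to differ between the LNA arms. Tekt1, Tekt4 and Mns1, other proteins of the doublet, were not called.

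Zmynd10, an assembly factor that helps build dynein arms in the cytoplasm, was higher with the inhibitor in bleomycin lungs. It read 9.64, 9.95, 9.84, 9.52 and 9.60 with LNA-control and 10.01, 9.97, 10.06, 10.27 and 10.20 with the inhibitor. The groups did not overlap, and the difference was 0.39 ± 0.09 (1.31-fold, limma adjusted p = 0.00551). In PBS lungs it read 9.95, 9.93 and 10.12 with LNA-control and 9.84, 9.91 and 10.10 with the inhibitor, and bleomycin lungs with the inhibitor differed from the latter by 0.15 ± 0.10 (limma adjusted p = 0.352).

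Stk33, a kinase enriched in ciliated cells and sperm, was lower after bleomycin with LNA-control and higher with the inhibitor in bleomycin lungs, as Tppp3 was. It read 10.54, 10.68 and 10.68 in PBS + LNA-control lungs, 10.32, 10.44 and 10.66 in PBS lungs with the inhibitor, 9.90, 10.18, 10.52, 10.09 and 9.89 in Bleomycin + LNA-control lungs and 10.48, 10.52, 10.33, 10.86 and 10.57 in bleomycin lungs with the inhibitor. After bleomycin with LNA-control it was lower on every array (difference -0.52 ± 0.14, 1.43-fold, limma adjusted p = 0.0149), a call lost without PBS + LNA-control array 2 or 3. Bleomycin lungs with the inhibitor were higher by 0.44 ± 0.12 (1.35-fold, limma adjusted p = 0.0144) with overlap at LNA-control array 3. The interaction was 0.59 ± 0.20 and did not pass (limma adjusted p = 0.0783). A second Stk33 probe went the same way without a call. It was at -0.31 after bleomycin with LNA-control (limma adjusted p over all probes 0.127) and 0.29 with the inhibitor in bleomycin lungs (0.0725).

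The calls for Hydin, Zmynd10, Stk33 and Spef2 between the bleomycin groups were lost when Bleomycin + LNA-control arrays 1 and 4, the arrays high in thymocyte markers, were left out together. Those of Rfx2, Sntn and Tppp3 held, so that 3 of 36 were called without these arrays (8.33%, against 11.3% of all genes). After bleomycin with LNA-control, 2 of 36 (Ccno and Tppp3) were called without them (5.56%, against 10.9% of all genes). Calls over all genes were thus lost too, from 24.9% and 17.6% with all arrays. The part of the thymocyte transcripts in the lost calls was not tested. The Hydin and Stk33 calls between the bleomycin groups were also lost with the RNA integrity number as a covariate.

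Sntn encodes sentan, a protein of the cilium tip. It read 8.51, 8.67 and 8.48 in PBS lungs with the inhibitor and 8.13, 8.13, 8.05, 7.53 and 7.63 in bleomycin lungs with the inhibitor. Every bleomycin array was lower (difference -0.66 ± 0.14, 1.58-fold, limma adjusted p = 0.00905). In LNA-control lungs it read 8.64, 8.60 and 8.73 with PBS and 8.61, 8.36, 8.44, 8.17 and 8.32 with bleomycin, which overlapped (-0.28 ± 0.14, limma adjusted p = 0.188). Between the bleomycin groups Sntn was lower with the inhibitor (difference -0.48 ± 0.12, limma adjusted p = 0.00716), without overlap and in the opposite direction to Zmynd10, Stk33 and Tppp3. The 2 lowest arrays, 4 and 5 of the inhibitor group, were also the highest in Tppp3. Their RNA integrity numbers were 9 and 10, and array 5 had the highest of the series. The part of RNA quality in the Sntn difference was not tested beyond the fit with it as a covariate, which kept both Sntn calls. In a fit of only the groups compared, 0 of 36 genes passed after bleomycin in inhibitor lungs, against 1.3% of all genes. The calls of Tekt2 and Sntn were lost in that fit, where the share of all genes was down from 13.4%.

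Cdhr3, a cadherin of the ciliated cell surface, read 10.77, 10.83 and 10.93 in PBS + LNA-control lungs, 10.79, 11.04 and 11.04 in PBS lungs with the inhibitor, 10.62, 10.69, 10.98, 10.72 and 10.76 in Bleomycin + LNA-control lungs and 10.93, 10.64, 10.62, 10.91 and 10.34 in bleomycin lungs with the inhibitor. All groups overlapped and no comparison passed. Cdhr4 and Ak7, an adenylate kinase of the axoneme, were not called either.

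Wider lists of cilium genes were read in the same way. Of 75 further measured genes of the motile cilium, 4 fell and 0 rose after bleomycin with LNA-control (5.33%, against 17.6% of all genes). In inhibitor lungs 2 rose and 11 fell (17.3%, against 13.4%). With the inhibitor in bleomycin lungs 9 rose and 7 fell (21.3%, against 24.9%). The median differences of the 75 were -0.08, -0.11 and -0.02 in these comparisons, against -0.20, -0.05 and 0.08 for the 36. The median interaction was -0.05 for the 75 and 0.12 for the 36. The larger fall with LNA-control and the upward shift with the inhibitor were thus not shared by the 75. Cfap73, a protein of inner arm docking, fell by 0.60 ± 0.12 on the log2 scale after bleomycin with LNA-control (difference -0.60, limma adjusted p = 0.00197). Of 37 genes of intraflagellar transport and the BBSome, which serve all cilia, 0 rose and 2 fell after bleomycin with LNA-control (5.41%, against 17.6% of all genes), and 4 rose and 4 fell with the inhibitor in bleomycin lungs (21.6%, against 24.9%).

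Genes that control the programme and amplify centrioles were higher after bleomycin in LNA-control lungs for 4 of 22 measured (Tfdp1, Foxn4, Deup1 and Stil), with none lower (18.2% called, against 17.6% of all genes, a like share). With the inhibitor in bleomycin lungs 2 of the 22 were higher and 6 lower (36.4%, against 24.9%). Foxn4, a forkhead factor of multiciliated cells, read 6.69, 6.66 and 6.65 in PBS + LNA-control lungs and 7.64, 7.30, 6.93, 7.62 and 7.80 in Bleomycin + LNA-control lungs. Every bleomycin array was higher, by 0.79 ± 0.15 (limma adjusted p = 0.00176). With the inhibitor it read 6.67, 6.93 and 7.16 in PBS lungs and 6.86, 6.87, 6.66, 6.84 and 6.77 in bleomycin lungs, which overlapped. Bleomycin lungs with the inhibitor were lower than those with LNA-control (difference -0.66 ± 0.13, limma adjusted p = 0.00228), and the interaction was -0.91 ± 0.22 (adjusted p = 0.0211).

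Deup1, a scaffold of the deuterosome on which centrioles are multiplied, read 9.25, 9.14 and 8.92 in PBS + LNA-control lungs and 9.56, 9.35, 9.31, 9.67 and 9.89 in Bleomycin + LNA-control lungs. The bleomycin arrays were all higher, by 0.45 ± 0.12 (limma adjusted p = 0.0174). In inhibitor lungs it read 9.13, 9.45 and 9.46 with PBS and 9.02, 9.15, 9.09, 8.94 and 9.08 with bleomycin, and the interaction was -0.74 ± 0.18 (limma adjusted p = 0.0203). The other 2 Deup1 probes did not pass in any comparison, and without Bleomycin + LNA-control arrays 1 and 4 the interactions of Foxn4 and Deup1 did not pass (limma adjusted p = 0.0869 and 0.0773). The Foxn4 interaction was also lost without PBS + LNA-control array 2 or 3 or PBS + LNA-miR-199a-5p array 3, and that of Deup1 without PBS + LNA-control array 3 or PBS + LNA-miR-199a-5p array 2. Both were lost with RNA integrity as a covariate, and that of Deup1 in the mean of all its probes. The rise of Deup1 after bleomycin was lost without PBS + LNA-control array 3, without arrays 1 and 4 of Bleomycin + LNA-control and in the mean of its probes.

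Stil, a centriole duplication factor that is also made in dividing cells, read 6.02, 6.03 and 6.00 in PBS + LNA-control lungs and 7.39, 6.91, 6.34, 7.12 and 7.00 in Bleomycin + LNA-control lungs. It was higher on every bleomycin array, by 0.94 ± 0.18 (limma adjusted p = 0.00180). In inhibitor lungs it read 6.02, 6.07 and 6.09 with PBS and 6.15, 6.88, 6.33, 6.26 and 6.50 with bleomycin, without a call. The interaction of -0.57 did not pass (limma adjusted p over all probes 0.198). With the inhibitor in bleomycin lungs Stil was called lower (difference -0.53). That call was lost without Bleomycin + LNA-control arrays 1 and 4 and with RNA integrity as a covariate. It held in 11 of 16 fits that left out 1 array. Plk4 and Sass6, which drive centriole duplication in dividing cells too, were among the 6 genes lower with the inhibitor. Gmnc, which acts with Mcidas, and Myb were not called.

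**Figure D4:**
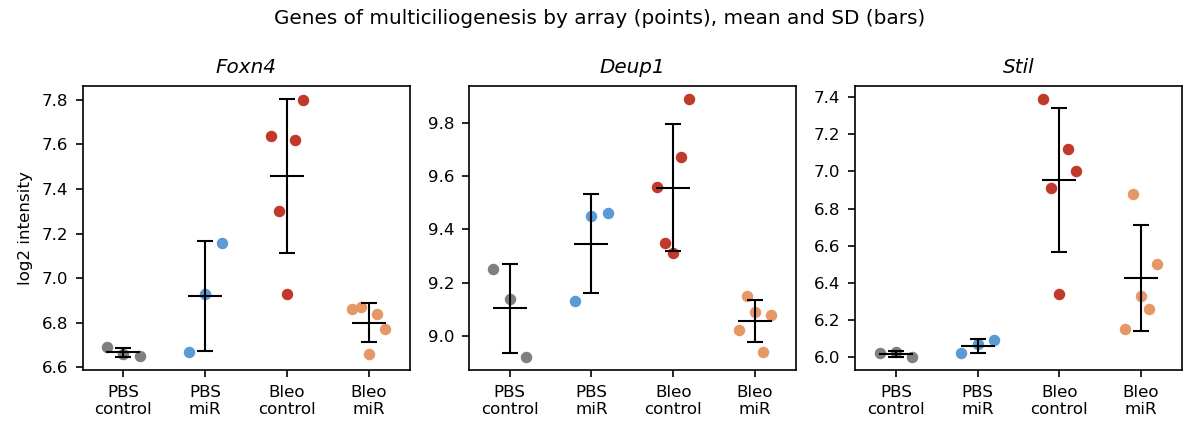
Log2 intensity of Foxn4, Deup1 and Stil on each array (points) with the mean and SD of each group; each panel has its own axis. All 5 Bleomycin + LNA-control arrays lie above the 3 PBS + LNA-control arrays for each gene.

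**Figure D5:**
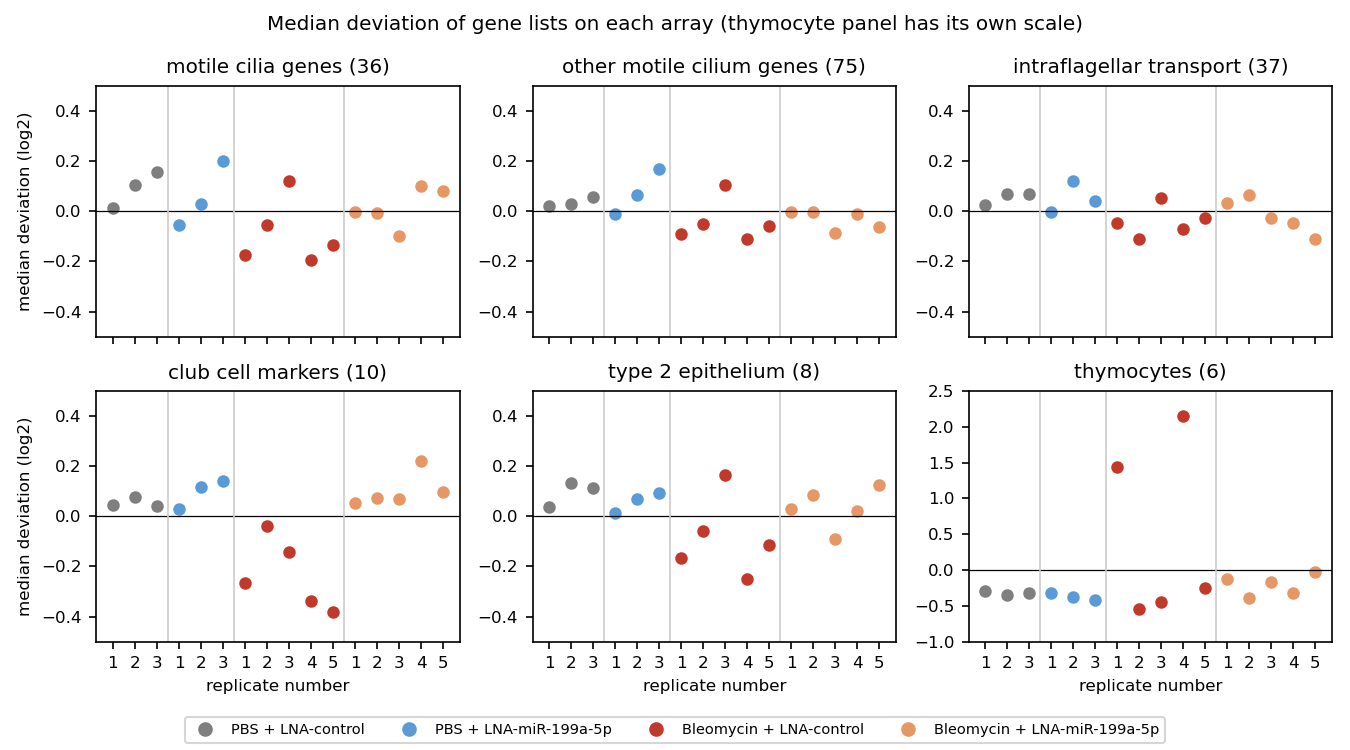
Median deviation of 6 gene lists on each array, in log2 units from each gene's mean over 16 arrays; colours mark the group and the thymocyte panel has its own scale. The motile cilia genes lie between -0.19 and 0.20 on every array, the club cell markers reach -0.38 in Bleomycin + LNA-control, and thymocyte markers stand at 1.43 and 2.15 on arrays 1 and 4 of that group.

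The median deviation of the 36 genes on an array overlapped between all 4 groups. It averaged 0.09 ± 0.07 (SD, n = 3) in PBS + LNA-control, 0.06 ± 0.13 (SD, n = 3) in PBS with the inhibitor, -0.09 ± 0.13 (SD, n = 5) in Bleomycin + LNA-control and 0.01 ± 0.08 (SD, n = 5) in bleomycin with the inhibitor. Bleomycin + LNA-control array 3 stood at 0.12 and the other 4 arrays of that group at -0.19 to -0.05. Without that array 11 of the 36 genes were called after bleomycin with LNA-control (30.6%, against 19.1% of all genes), and 14 between the bleomycin groups (38.9%, against 27.1%). The array was singled out by its level in these same genes, the highest of its group. Leaving it out lowers the group in these genes by construction, so nothing is concluded from these counts.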

How the data were processed

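The 16 arrays are 1-colour Agilent hybridisations of Cy3-labelled total RNA (0.2 ug each). The deposited values are log2 intensities that the authors prepared with limma, per the submitters' processing notes; after sorting, the arrays differed by at most 0.0974 at any rank, as in quantile normalized data. Background correction and scanner settings are not given in the sources used here. Of 62976 spots, 31465 had a gene symbol in the platform table; symbols were updated through RefSeq, and the probe with the highest mean was kept, leaving 20738 genes. Probes with none (31511) were not used.

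The members and lists were chosen with earlier results of these data known. limma 3.58.1 (R 4.3.3) fitted 4 group means to all 16 arrays (lmFit, eBayes), with 5 two-sided contrasts and Benjamini-Hochberg adjustment over all genes, called under 0.05. Values on every array are given for the members called in any contrast, Foxj1 and the member with the highest mean in each role; of other lists, those the rule put first by p. The fit was tested on simulated data of 20738 genes. Of 100 genes moved by 1 log2 unit it called 92% in the comparison of bleomycin and PBS with LNA-control and 94% for the inhibitor in bleomycin lungs. For 0.5 the shares were 57% and 71%, and false calls were 8 and 12. The simulated noise was independent between genes and few genes were changed. In the data 17.6% and 24.9% of all genes were called, so these shares need not apply to them. Deviations of same-numbered arrays of the PBS groups correlated at 0.108 to 0.498. PBS + LNA-control array 1 and PBS + LNA-miR-199a-5p array 2, of unlike number, reached 0.288. Same-numbered arrays of the groups with the inhibitor correlated at 0.0428 to 0.324. Those of the bleomycin groups correlated at -0.373 to 0.0276, and those of the LNA-control groups at -0.103 to -0.00809. Bleomycin + LNA-control and PBS + LNA-miR-199a-5p gave -0.195 to -0.113. Bleomycin + LNA-miR-199a-5p and PBS + LNA-control gave -0.0319 to 0.013. The labels name no pairing, and these values do not settle whether the numbers pair the samples. Alternatives are in the closing section.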

Additional observations from a re-analysis of the deposited data

Results flagged for a closer look

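Tppp3 was flagged because the bleomycin response differed between the LNA arms: it fell with LNA-control and did not with LNA-miR-199a-5p, and the interaction was 1.12 ± 0.23 (limma adjusted p = 0.0108). Foxn4 (-0.91 ± 0.22, limma adjusted p = 0.0211) and Deup1 (-0.74 ± 0.18, limma adjusted p = 0.0203) differed in the opposite direction, and both calls were lost without some single arrays and with RNA integrity as a covariate. Of these 3 interactions, that of Tppp3 alone held whichever 1 of the 16 arrays was left out.

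Foxj1 on Bleomycin + LNA-control array 2 read 11.53, far from the 11.17 to 11.23 of the other 4 arrays of its group. It was the 1 group of 34 tested, those of 5 arrays for the 17 genes given by array, and chance alone marks about 1 in 20 groups.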

How the results depend on the processing

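The counts of called genes of the 36 moved with the weighting and choice of arrays, and no direction of a called value reversed. After bleomycin with LNA-control, 5 became 21 with array weights (58.3%, against 32.3% of all genes). The count was 3 with the replicate block (8.33%, against 11.7%). Without Bleomycin + LNA-control arrays 1 and 4 it was 2 (5.56%, against 10.9%). Leaving out 1 array gave 2 to 11 (5.56% to 30.6%, against 11.0% to 19.1% of all genes). After bleomycin with the inhibitor, 4 became 2 with the replicate block (5.56%, against 3.19% of all genes). It was also 2 with RNA integrity as a covariate (5.56%, against 5.59%). With only the groups compared it was 0, against 1.3% of all genes. Leaving out 1 array gave 2 to 6 (5.56% to 16.7%, against 5.7% to 17.0% of all genes). For the inhibitor in bleomycin lungs, 7 became 11 with array weights (30.6%, against 28.7% of all genes). Without arrays 1 and 4 it was 3 (8.33%, against 11.3%). Leaving out 1 array gave 7 to 14 (19.4% to 38.9%, against 18.2% to 27.1% of all genes). The 14 was without Bleomycin + LNA-control array 3. For the inhibitor in PBS lungs, 0 became 1 (Spef2) with array weights (2.78%, against 1.88% of all genes), and leaving out 1 array gave 0. For the interaction, 1 became 8 with array weights (22.2%, against 18.7% of all genes). It was 2 with the replicate block (5.56%, against 4.58%). It was also 2 without dim genes, a fit whose share over all genes is not given here. Leaving out 1 array gave 1 to 5. It was 5 without Bleomycin + LNA-control array 3 (13.9%, against 10.7% of all genes) and 4 without array 2 (11.1%, against 9.11%). The interaction has no value in a fit of only the groups compared. The replicate block also ended the rise of Deup1 after bleomycin with LNA-control (0.39, limma adjusted p = 0.085). The cause was not tested. The block moved no call of the 36 in PBS lungs. Of the values of single genes under the alternatives, 2731 kept direction and side of the threshold, 76 lost it and 45 gained it.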
